A study of Mus with 12 samples.

Results

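The genes described here are 38 interferon-stimulated genes of the mouse uterus, chosen by name as a known group of genes out of the 58273 gene names that carry an annotated Ensembl transcript in the 2 deposited tables. The choice was made with earlier results of these data known. RNA had been sequenced from the whole uterus of 12 pregnant ICR mice, an outbred stock, with 1 mouse in each library. The labels give an age of 8 weeks for every mouse and name no treatment or transgene. The study states a single age at mating, by which mice of the later days were older when the uterus was taken. Implantation was covered by 3 uteri at embryonic day 0.5 (E0.5) and 3 at E4.5, and labor by 3 at E15.5 and 3 at E18.5. The study chose the days by the level of progesterone, and folds are given here as E0.5 over E4.5 and E18.5 over E15.5. All 38 genes were found in both tables and all passed the minimum of 0.1 FPKM (fragments scaled by transcript length and by library size) on average. At the implantation stage they lay in 36 rows, since Ifit2 shared a row with Ifit3b and Oas1g a row with Oas1a, and at the labor stage in 38 rows. The rows are gene models merged by the authors' assembly in 9 of the 36 and 5 of the 38 cases, and such a row is named with its partner genes where it is first described.

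Interferons are secreted proteins that warn cells of infection. Type I interferons bind the receptor chains Ifnar1 and Ifnar2, whose kinases Jak1 and Tyk2 phosphorylate transcription factors such as Stat2. With Irf9, Stat2 switches on genes that block viral replication, while interferon gamma, which has its own receptor, favors the GTPase and antigen processing genes. Many of these genes are also known to be active without infection in the uterus and at the contact of mother and conceptus.

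The implantation libraries held 58020989 to 70906881 counts each, and the depth of the labor libraries is unknown because only FPKM were used there. The E4.5 replicate 3 library stood apart. Its Spearman correlation across rows was 0.643 and 0.619 with the other E4.5 libraries, against 0.83 between the other two, and it held 378 FPKM of Cyp11a1, a steroid-making enzyme of the ovary and placenta, where the other 5 libraries of the stage held at most 0.951 FPKM. The counts of the implantation stage are therefore also given without it, as is the value of an interferon-stimulated gene whose fold moved by over 1.5 times or whose call by the criterion changed when it was left out. Markers of smooth muscle, stroma and uterine epithelium were found in every library, but in E4.5 replicate 3 they summed to 206, 111 and 101 FPKM, the lowest of the 6 libraries, against 798 to 1214, 278 to 287 and 175 to 241 FPKM in the other E4.5 libraries.

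The first comparison asked how the genes differed between the day after mating and the day of implantation. The study called a gene where the log2 fold change reached 1 in size at an unadjusted p below 0.05, and by this criterion 23 of the 36 rows were higher at E0.5 and 0 were lower. Of all 52738 rows tested, 6.13% were higher and 5.98% lower by the same criterion. The median log2 fold change of the rows was 1.58, a fold of 2.99, where the median of all rows tested was -0.03. With Benjamini-Hochberg adjustment over all rows in edgeR's quasi-likelihood test, 8 of the 36 rows were higher (Zbp1, Oas3, Mx1, Ifi44, Oasl2, Mx2, Rtp4 and Xaf1) against 0.832% of all rows and 0 lower against 0.569%, and 13 more had an adjusted p between 0.05 and 0.1. In 30 of the 36 rows the lowest E0.5 library lay above the highest E4.5 library, which held for 12.3% of all rows, and 0 rows were separated in the other direction against 13.4%. Leaving out E4.5 replicate 3 gave 25 rows by the criterion, which were the 23 with Stat2 and Herc6, and 23 by the adjusted p, where 7.54% and 3.29% of all rows were higher. Of the 36 folds, 1 moved by over 1.5 times without it, that of Ifi27l2a. Leaving out any other library gave 22 to 24 rows by the criterion, as Usp18 lost its call without E0.5 replicate 2 while Herc6 gained one without E0.5 replicate 1 and Psmb8 without E4.5 replicate 1, but only 2 rows passed the adjusted p without E4.5 replicate 2 and 0 without any one of the other 4 libraries. Calls fell over all rows in the same 5 fits, to between 5.1% and 5.98% higher by the criterion, and by the adjusted p to 0.19% without E4.5 replicate 2 and between 0% and 0.0417% for the other 4. The bulk libraries cannot tell fewer responding cells from less RNA per cell.

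**Figure D1:**
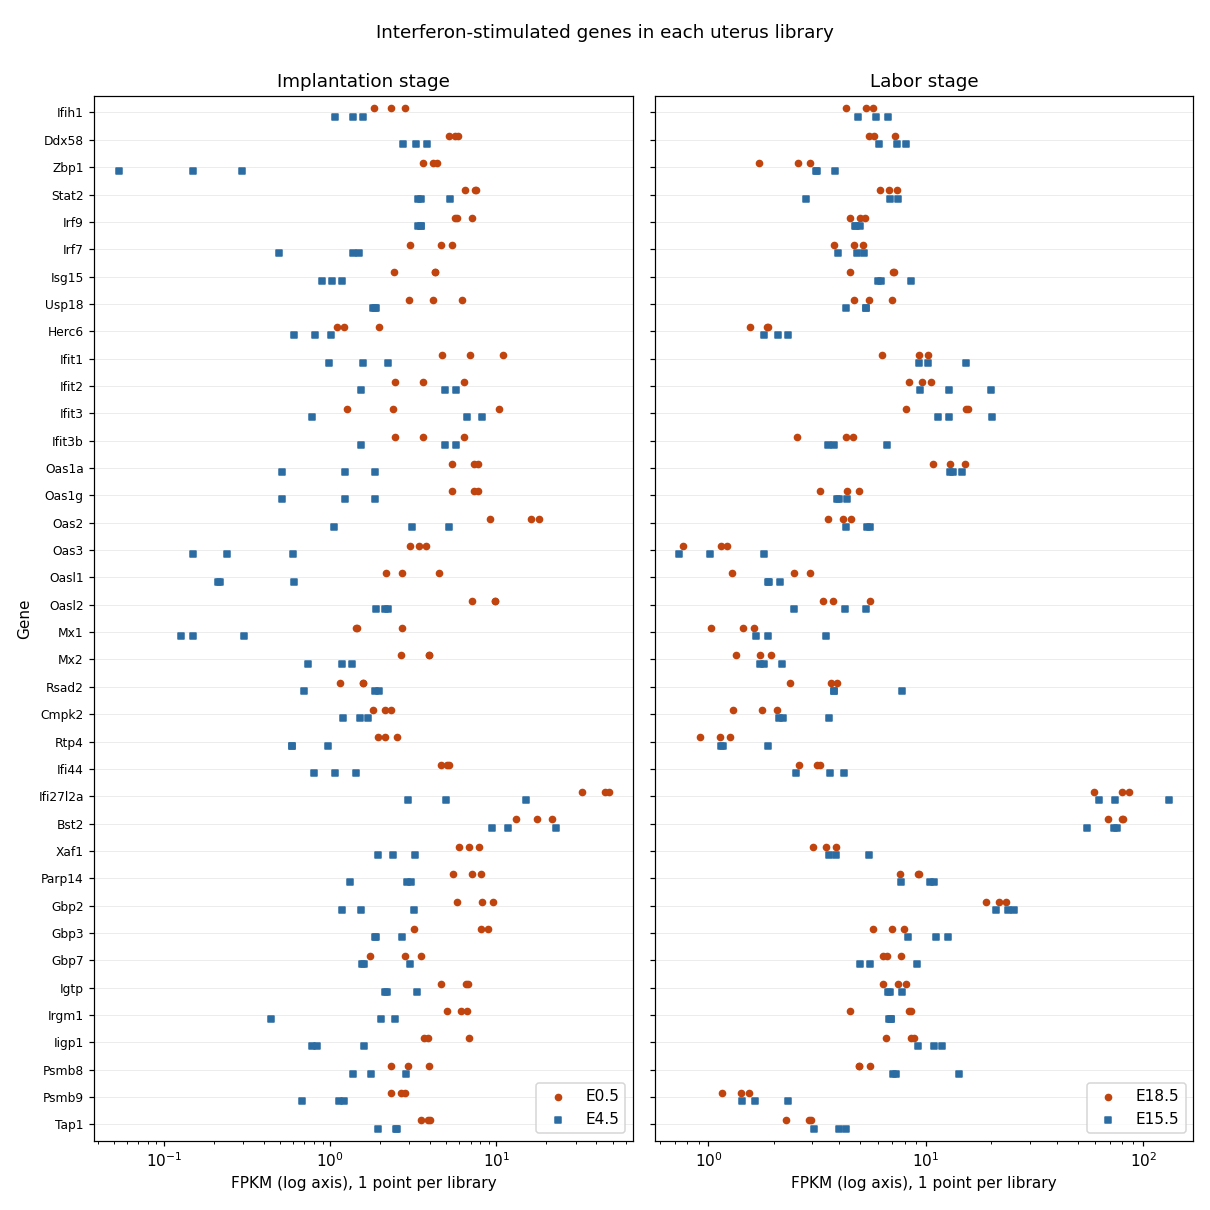
Level of each of the 38 genes in every library, in FPKM on a log axis, with E0.5 or E18.5 as circles and E4.5 or E15.5 as squares and 1 point per library. In 30 of 36 rows at implantation the circles lie wholly to the right of the squares, and at labor the groups overlap for 31 of 38 genes (Ifit2 with Ifit3b and Oas1a with Oas1g share 1 row each at implantation).

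The sensors recognize foreign nucleic acid inside the cell. Zbp1, which binds Z-form nucleic acid and can start necroptosis (chr2:173206612-173218923, minus strand, coordinates of the deposited row), had the greatest fold of the 36 rows. It was at 4.38, 4.14 and 3.63 FPKM in the E0.5 uteri and 0.15, 0.295 and 0.0536 FPKM in the E4.5 uteri. All E0.5 libraries lay well above all E4.5 libraries, with a log2 fold change of 4.61 ± 0.60 (SE, adjusted p = 0.0272) that was 5.26 without E4.5 replicate 2. The RNA helicase Ifih1, also known as MDA5, was at 1.84, 2.83 and 2.31 FPKM in the E0.5 uteri and 1.07, 1.36 and 1.58 FPKM in the E4.5 uteri. Its groups did not overlap, but the log2 fold change of 0.83 ± 0.23 (SE, adjusted p = 0.14) stayed under the criterion, as did that of Ddx58 (RIG-I), 0.79 ± 0.17 (SE, adjusted p = 0.0768).

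Among the transcription factors that carry the interferon signal, Irf7, the factor that amplifies interferon production, was the one past the criterion. It was at 3.04, 5.45 and 4.66 FPKM in the E0.5 uteri and 1.48, 1.38 and 0.492 FPKM in the E4.5 uteri, with a log2 fold change of 1.98 ± 0.47 (SE, adjusted p = 0.0985). Stat2, which acts together with Irf9, was at 7.53, 7.39 and 6.46 FPKM in the E0.5 uteri and 3.36, 3.54 and 5.29 FPKM in the E4.5 uteri. Its groups were separated by a smaller step of 0.83 ± 0.21 (SE, adjusted p = 0.107), which without E4.5 replicate 3 was 1.05 and reached the criterion, and Irf9, which brings the complex to DNA, whose row also holds Rnf31, had 0.85 ± 0.17 (SE, adjusted p = 0.0626).

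The ISG15 system couples a ubiquitin-like protein to other proteins. Isg15 itself was at 2.41, 4.26 and 4.28 FPKM in the E0.5 uteri and 0.893, 1.03 and 1.18 FPKM in the E4.5 uteri, and its log2 fold change was 1.85 ± 0.36 (SE, adjusted p = 0.0633). Usp18, the protease that removes Isg15 and also dampens the type I receptor, was at 2.97, 6.21 and 4.16 FPKM in the E0.5 uteri and 1.87, 1.85 and 1.81 FPKM in the E4.5 uteri. The E4.5 libraries lay close together for Usp18 while the E0.5 libraries spread about the mean of 4.45 ± 1.64 FPKM (SD, n = 3), and the log2 fold change was 1.29 ± 0.30 (SE, adjusted p = 0.0924), or 0.96 and short of the criterion without E0.5 replicate 2. Herc6, the mouse Isg15 ligase, in a row merged with 4930533I22Rik and Gm45193, had 0.85 ± 0.30 (SE, adjusted p = 0.212) and did not reach the criterion, but its fold change was 1.03 and past it without E4.5 replicate 3 or without E0.5 replicate 1.

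The IFIT proteins bind foreign RNA and stop its translation, and 1 of their 3 rows, that of Ifit1, reached the criterion. Ifit1 was at 4.74, 6.94 and 10.9 FPKM in the E0.5 uteri and 1.58, 2.23 and 0.979 FPKM in the E4.5 uteri, with separated groups and a log2 fold change of 2.27 ± 0.43 (SE, adjusted p = 0.0605). Ifit3 was at 1.27, 2.38 and 10.3 FPKM in the E0.5 uteri and 8.24, 6.65 and 0.779 FPKM in the E4.5 uteri. For Ifit3, then, E0.5 replicate 3 and the E4.5 replicates 1 and 2 were high and the other 3 libraries low, so that days did not separate and the log2 fold change was -0.15 ± 1.01 (SE, adjusted p = 0.955). The merged row of Ifit2 and Ifit3b was at 2.47, 3.61 and 6.4 FPKM in the E0.5 uteri and 4.91, 5.72 and 1.53 FPKM in the E4.5 uteri, with the same libraries high and a log2 fold change of 0.06 ± 0.55 (SE, adjusted p = 0.97). Ifit3 and Ifit3b are close copies, and the deposited counting may divide reads between them.

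The OAS family makes oligoadenylates that activate RNase L, and all 5 of its rows were higher at E0.5 by the criterion, with no overlap of groups. The merged row of Oas1g and Oas1a was at 5.44, 7.38 and 7.81 FPKM in the E0.5 uteri and 1.23, 1.86 and 0.512 FPKM in the E4.5 uteri, and its log2 fold change was 2.54 ± 0.47 (SE, adjusted p = 0.0575). Oas2 was at 9.2, 18.2 and 16.2 FPKM in the E0.5 uteri and 3.09, 5.19 and 1.06 FPKM in the E4.5 uteri, and its log2 fold change was 2.24 ± 0.58 (SE, adjusted p = 0.116). Oas3, which lies beside Oas2 (chr5:120753098-120777661 and chr5:120730333-120749853), was at 3.01, 3.4 and 3.78 FPKM in the E0.5 uteri and 0.239, 0.595 and 0.151 FPKM in the E4.5 uteri. The log2 fold change of Oas3, 3.39 ± 0.52 (SE, adjusted p = 0.0401), was the greatest of the family, and was 4.11 without E4.5 replicate 2. Oasl1, a relative that lacks the enzyme activity, was at 2.17, 2.72 and 4.54 FPKM in the E0.5 uteri and 0.605, 0.216 and 0.211 FPKM in the E4.5 uteri, and its log2 fold change was 3.18 ± 0.57 (SE, adjusted p = 0.0538), or 3.92 without E4.5 replicate 1. Oasl2 was at 7.12, 9.78 and 9.8 FPKM in the E0.5 uteri and 2.14, 1.87 and 2.24 FPKM in the E4.5 uteri, with tight groups and 2.12 ± 0.20 (SE, adjusted p = 0.0167), the lowest adjusted p of the 36 rows.

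Mx1 and Mx2 encode dynamin-like GTPases that trap viral particles. Mx1 was at 1.45, 1.44 and 2.69 FPKM in the E0.5 uteri and 0.149, 0.305 and 0.126 FPKM in the E4.5 uteri, and its log2 fold change was 3.28 ± 0.46 (SE, adjusted p = 0.0324). Mx2 was at 2.65, 3.93 and 3.91 FPKM in the E0.5 uteri and 0.736, 1.36 and 1.18 FPKM in the E4.5 uteri, and its log2 fold change was 1.71 ± 0.29 (SE, adjusted p = 0.0482). Both genes were low in FPKM and separated by day. Rsad2 (viperin) and its genomic neighbor Cmpk2, which act on nucleotides, did not reach the criterion. Rsad2 was at 1.57, 1.14 and 1.58 FPKM in the E0.5 uteri and 1.96, 1.85 and 0.696 FPKM in the E4.5 uteri, with overlapping groups and a log2 fold change of -0.06 ± 0.42 (SE, adjusted p = 0.958), and Cmpk2 had 0.54 ± 0.22 (SE, adjusted p = 0.272).

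The 6 other genes of the type I response differed widely in level. Ifi27l2a, a small mitochondrial protein, had the highest average of the 36 rows in FPKM, at 32.8, 45.2 and 47.4 FPKM in the E0.5 uteri and 4.95, 2.92 and 15.2 FPKM in the E4.5 uteri, and its log2 fold change was 2.48 ± 0.60 (SE, adjusted p = 0.101). The E4.5 replicate 3 library was the highest of its group for Ifi27l2a, and without it the log2 fold change was 3.40 ± 0.34 (SE, adjusted p = 0.00368). Rtp4, a chaperone of membrane receptors that restrains viral replication, in a row that also holds the gene model Gm45338, was at 2.54, 2.13 and 1.94 FPKM in the E0.5 uteri and 0.591, 0.586 and 0.976 FPKM in the E4.5 uteri. Its log2 fold change was 1.64 ± 0.26 (SE, adjusted p = 0.0425). Ifi44 was at 4.64, 5.22 and 5.04 FPKM in the E0.5 uteri and 1.43, 1.07 and 0.795 FPKM in the E4.5 uteri, and the narrow groups gave 2.19 ± 0.27 (SE, adjusted p = 0.0254). Xaf1, a partner of the apoptosis inhibitor XIAP, was at 6.84, 7.87 and 5.97 FPKM in the E0.5 uteri and 1.94, 2.38 and 3.23 FPKM in the E4.5 uteri, and its log2 fold change was 1.48 ± 0.23 (SE, adjusted p = 0.0384). Parp14, an ADP-ribosyltransferase merged with the model Gm49730, was at 5.51, 8.13 and 7.13 FPKM in the E0.5 uteri and 3.08, 2.89 and 1.31 FPKM in the E4.5 uteri, and its log2 fold change was 1.53 ± 0.36 (SE, adjusted p = 0.0987). These 5 were separated by day. Bst2 (tetherin), which holds budding virus at the membrane, was not, with a log2 fold change of 0.29 ± 0.36 (SE, adjusted p = 0.728), and its E4.5 replicate 3 was the highest of the 6 libraries.

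The interferon-inducible GTPases attack the vacuoles of intracellular pathogens, and 5 of their 6 rows were higher at E0.5 by the criterion, none with an adjusted p under 0.05. Gbp2, merged with Gbp2b, was at 5.76, 8.18 and 9.55 FPKM in the E0.5 uteri and 1.17, 1.53 and 3.18 FPKM in the E4.5 uteri, and its log2 fold change was 2.03 ± 0.40 (SE, adjusted p = 0.0665). Gbp3 was at 3.19, 8.96 and 8.1 FPKM in the E0.5 uteri and 2.7, 1.87 and 1.88 FPKM in the E4.5 uteri, and its log2 fold change was 1.67 ± 0.42 (SE, adjusted p = 0.113). In Gbp3 the groups came close, with E0.5 replicate 1 near E4.5 replicate 1. Iigp1 was at 6.81, 3.86 and 3.65 FPKM in the E0.5 uteri and 0.837, 1.59 and 0.782 FPKM in the E4.5 uteri, and its log2 fold change was 2.17 ± 0.37 (SE, adjusted p = 0.0504). Irgm1 was at 5.07, 6.14 and 6.68 FPKM in the E0.5 uteri and 2.46, 0.442 and 2.03 FPKM in the E4.5 uteri, and its log2 fold change was 1.86 ± 0.59 (SE, adjusted p = 0.175). Igtp, merged with Irgm2, was at 4.67, 6.74 and 6.53 FPKM in the E0.5 uteri and 2.2, 2.13 and 3.31 FPKM in the E4.5 uteri, and its log2 fold change was 1.26 ± 0.25 (SE, adjusted p = 0.0668). Gbp7, merged with the model Gm43802, was the exception, with overlapping groups and 0.40 ± 0.39 (SE, adjusted p = 0.638). The Gbp genes are close copies of each other, and how reads were divided among them is not given, so that single values are uncertain.

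The median log2 fold change of the 3 antigen processing genes was 0.73, above the 0.06 of the IFIT rows and below that of the other roles. Psmb9, a catalytic subunit of the immunoproteasome, was at 2.81, 2.33 and 2.68 FPKM in the E0.5 uteri and 1.22, 0.68 and 1.13 FPKM in the E4.5 uteri, and its log2 fold change was 1.38 ± 0.28 (SE, adjusted p = 0.0707). Its partner Psmb8 was at 2.32, 2.94 and 3.91 FPKM in the E0.5 uteri and 2.85, 1.76 and 1.38 FPKM in the E4.5 uteri. Psmb8 overlapped between days at 0.62 ± 0.36 (SE, adjusted p = 0.409), or 1.02 and past the criterion without E4.5 replicate 1, and Tap1, which carries peptides into the endoplasmic reticulum, had separated groups at 0.73 ± 0.19 (SE, adjusted p = 0.117).

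Across the rows, E0.5 replicate 1 was the lowest library of its group in 27 of 36 rows. E4.5 replicate 3 was the lowest of its group in 17 of 36 rows and the highest in 13, as often the highest as E4.5 replicate 1. The summed FPKM of the rows was 179, 244 and 251 at E0.5 and 82.1, 81.7 and 91.7 at E4.5, so that the days were separated in every library, although this sum leans on Ifi27l2a and Bst2.

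The second comparison asked whether the same genes differed before labor. By the study's criterion 0 of the 38 rows were higher and 0 lower at E18.5 than at E15.5, against 2.89% and 2.71% of the 29597 rows tested with limma on log2(FPKM + 0.1). In limma 0 rows passed the adjusted p, the lowest being 0.301, where 0.0338% of all rows were higher and 0.0101% lower, and at an unadjusted p under 0.05 irrespective of fold there were 4 rows, all lower at E18.5, against 5.42% of all rows. The median log2 fold change was -0.19, that of all rows 0.02, and the rows ranged from -0.81 to 0.36 with 29 negative and 9 positive. In 7 rows every E18.5 library lay below every E15.5 library, against 8.79% of all rows, and in 0 the reverse, against 10.9%. The E18.5 replicate 3 library was the lowest of its group in 31 of 38 rows, and without it the median was -0.06.

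The 4 rows with an unadjusted p under 0.05 were Psmb8 and Tap1 of the 3 antigen processing genes and Gbp3 and Iigp1 of the 6 GTPases. Psmb8 was at 5.51, 4.9 and 4.92 FPKM in the E18.5 uteri and 14.2, 7.25 and 7.05 FPKM in the E15.5 uteri. E15.5 replicate 1 stood above the other libraries of its group, and the log2 fold change was -0.81 ± 0.27 (SE, adjusted p = 0.32). Gbp3 was at 7.01, 7.95 and 5.74 FPKM in the E18.5 uteri and 12.6, 11.1 and 8.31 FPKM in the E15.5 uteri, and its log2 fold change was -0.62 ± 0.20 (SE, adjusted p = 0.301). Tap1 with -0.46 ± 0.19 (SE, adjusted p = 0.401) and Iigp1 with -0.41 ± 0.17 (SE, adjusted p = 0.397) differed less, and their groups too were separated.

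The genes that were far apart at implantation were near each other here. Zbp1 was at 2.57, 2.93 and 1.71 FPKM in the E18.5 uteri and 3.17, 3.83 and 3.14 FPKM in the E15.5 uteri, and its log2 fold change was -0.50 ± 0.22 (SE, adjusted p = 0.432). Mx1 was at 1.62, 1.45 and 1.03 FPKM in the E18.5 uteri and 1.89, 3.48 and 1.66 FPKM in the E15.5 uteri, and its log2 fold change was -0.69 ± 0.31 (SE, adjusted p = 0.443). For both genes every E18.5 library lay below every E15.5 library, the reverse of the order at implantation, without reaching the criterion. Isg15 was at 7.03, 7.11 and 4.48 FPKM in the E18.5 uteri and 6.2, 8.51 and 6.04 FPKM in the E15.5 uteri, with overlapping groups and -0.17 ± 0.23 (SE, adjusted p = 0.796). Ifit1 was at 9.3, 10.2 and 6.3 FPKM in the E18.5 uteri and 10.2, 15.3 and 9.27 FPKM in the E15.5 uteri and Oas1a at 15.1, 12.9 and 10.8 FPKM in the E18.5 uteri and 14.6, 12.9 and 13.3 FPKM in the E15.5 uteri, and their groups overlapped too. Among the other leading genes of each role, Ifih1 had a log2 fold change of -0.18 ± 0.17 (SE, adjusted p = 0.702), Stat2 0.36 ± 0.36 (SE, adjusted p = 0.711), Rtp4 -0.29 ± 0.25 (SE, adjusted p = 0.671) and Gbp2 -0.14 ± 0.14 (SE, adjusted p = 0.709). Stat2 had 1 low library, E15.5 replicate 1 at 2.80 FPKM against 6.84 and 7.44 FPKM in the other two. The largest values of the 38 genes were again Ifi27l2a, at 86.2, 59.3 and 80.2 FPKM in the E18.5 uteri and 131, 62.6 and 73.8 FPKM in the E15.5 uteri, and Bst2, at 80.3, 81.0 and 68.9 FPKM in the E18.5 uteri and 55.1, 73.2 and 75.7 FPKM in the E15.5 uteri, each with overlapping groups. By role, median log2 fold changes lay between -0.57 for Mx1, Mx2, Rsad2 and Cmpk2 and 0.02 for the 3 transcription factors.

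**Figure D2:**
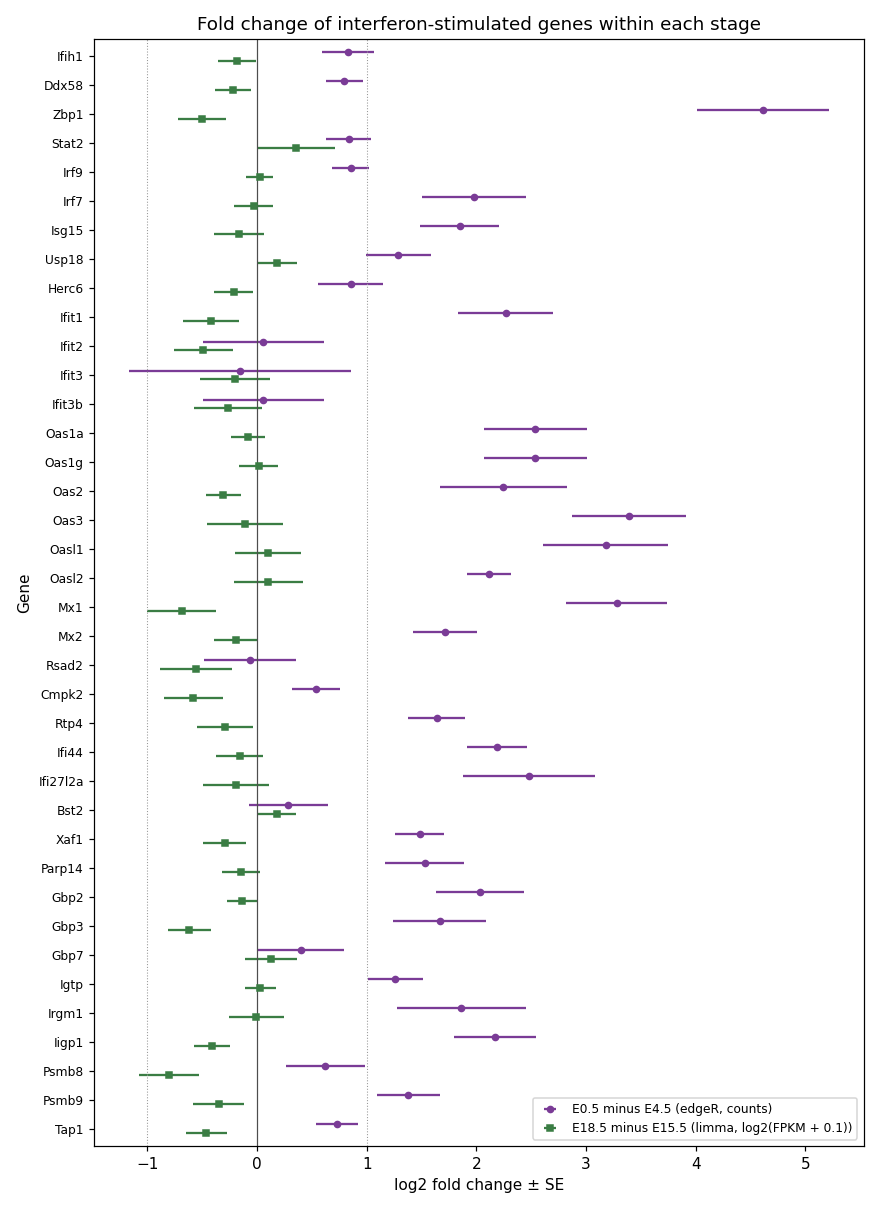
Log2 fold change ± SE of the 38 genes for E0.5 minus E4.5 (circles, edgeR on counts) and E18.5 minus E15.5 (squares, limma on log2(FPKM + 0.1)), with dotted lines at -1 and 1. The circles reach 4.61 for Zbp1 and the squares stay between -0.81 and 0.36.

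The 2 effects were then compared with each other by limma over all 12 libraries, as the effect of E0.5 over E4.5 minus that of E18.5 over E15.5, each taken within its own table. The fit took 1 variance for each pair of rows over both stages. Libraries of the same day correlated at 0.619 to 0.83 at implantation but at 0.856 to 0.937 at labor, so the implantation spread may be understated. The difference was positive for all 38 genes, with a median of 1.77 log2 units against -0.13 over the 22056 pairs of rows tested. It passed the adjusted p for 18 genes, against 1.3% of all pairs in that direction and 1.35% in the other, and the number was between 6 and 24 when 1 library was left out (6 without E15.5 replicate 2, E18.5 replicate 2 or E18.5 replicate 3, 7 without E0.5 replicate 2, 9 without E0.5 replicate 3 and 10 without E18.5 replicate 1). Zbp1 had the greatest difference with a pseudocount of 0.1 FPKM, 4.56 ± 0.44 (SE, adjusted p = 0.000759), followed by Mx1 with 3.42 ± 0.50 (SE, adjusted p = 0.00802) and Oas3 with 3.27 ± 0.55 (SE, adjusted p = 0.0149). The size and order depended on the pseudocount. With 1 FPKM the median was 1.27, 10 of the 18 differences moved by over 1.5 times, with Zbp1 at 2.49, Oas3 at 1.81, Mx1 at 1.70 and Oasl1 at 1.51, and the greatest was that of Ifi27l2a, 2.74. The 18 genes passed the adjusted p with either pseudocount, among 22 with 1 FPKM. With 0.01 FPKM, Zbp1 alone moved by over 1.5 times, to 5.31. Ifit3, with 0.04 ± 1.20, and Bst2, with 0.14 ± 0.42, were nearest to 0. Oas1a with Oas1g, and Ifit2 with Ifit3b, share their implantation row and are not independent.

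Other genes of the pathway, 115 named in a list of their own, were counted in rows that held none of the 38 genes. At implantation 84 such rows were tested, of which 24 were higher at E0.5 by the criterion, 2 lower and 9 higher by the adjusted p, where the shares of all rows were 6.13%, 5.98% and 0.832%. The median log2 fold change was 0.69. Without E4.5 replicate 3, a choice made after seeing the data, 23 were higher and 1 lower by the criterion, with 20 of the 26 called rows called again, and 24 were higher by the adjusted p, where 7.54% of all rows were higher by the criterion, 6.41% lower and 3.29% higher by the adjusted p. Without any one of the other 5 libraries 20 to 24 were higher by the criterion and 0 to 2 by the adjusted p, against 5.1% to 5.98% and 0% to 0.19% of all rows. At labor 88 were tested and 1 was higher and 2 lower, smaller shares than the 2.89% and 2.71% of all rows, 0 passed the adjusted p in limma and the median was -0.07.

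Few ligands were found. Of 21 interferon genes, 2 reached an average of 0.1 FPKM at either stage, Ifne and Ifnk. Ifne, the interferon that the epithelium of the female tract makes without infection, was at 1.57, 3.1 and 3.59 FPKM in the E0.5 uteri and 0.155, 1.91 and 0.145 FPKM in the E4.5 uteri. One E4.5 library reached the E0.5 range, and the log2 fold change was 1.94 ± 1.03 (SE, adjusted p = 0.375). That library was E4.5 replicate 2, and without it the log2 fold change was 4.16 ± 0.62 (SE, adjusted p = 0.0729) and past the criterion. At labor Ifne was at 10.5, 6.29 and 5.94 FPKM in the E18.5 uteri and 3.72, 2.19 and 2.52 FPKM in the E15.5 uteri, separated by day and the only ligand past the criterion, 1.38 ± 0.28 (SE, adjusted p = 0.158). Ifnk, known from skin keratinocytes, was at 3.49, 4.09 and 3.36 FPKM in the E0.5 uteri and 1.91, 2.92 and 1.8 FPKM in the E4.5 uteri and at labor at 1.12, 1.5 and 1.24 FPKM in the E18.5 uteri and 3.22, 2.06 and 1.63 FPKM in the E15.5 uteri. Its log2 fold change was 0.75 ± 0.22 (SE, adjusted p = 0.157) and -0.75 ± 0.27 (SE, adjusted p = 0.352), neither past the criterion. The highest Ifng value was 0.121 FPKM at implantation and 0.188 FPKM at labor.

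Among receptors, Ifnlr1, the chain for type III interferon that epithelia carry, was at 4.4, 3.57 and 4.47 FPKM in the E0.5 uteri and 1.83, 2.26 and 1.29 FPKM in the E4.5 uteri, and its log2 fold change was 1.23 ± 0.25 (SE, adjusted p = 0.0686). The type I chain Ifnar1 was at 5.4, 7.9 and 6.27 FPKM in the E0.5 uteri and 8.08, 6.41 and 8.63 FPKM in the E4.5 uteri, with overlapping groups and -0.22 ± 0.21 (SE, adjusted p = 0.645). The row of Ifnar2, merged with Il10rb, had -0.05 ± 0.28 (SE, adjusted p = 0.949), and the interferon gamma chains Ifngr1 and Ifngr2 had 0.29 ± 0.22 (SE, adjusted p = 0.54) and 0.76 ± 0.22 (SE, adjusted p = 0.142). No receptor passed the criterion at labor, where Ifnlr1 had 0.81 ± 0.33 (SE, adjusted p = 0.401).

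Among the kinases, Jak1 was one of the 2 rows lower at E0.5, at 7.38, 8.04 and 9.73 FPKM in the E0.5 uteri and 16.7, 13.4 and 24.1 FPKM in the E4.5 uteri, and its log2 fold change was -1.08 ± 0.25 (SE, adjusted p = 0.0938). Jak1 did not reach the criterion without E4.5 replicate 3, at -0.85, or without E0.5 replicate 1. The other was Slfn9, -1.13 ± 0.25 (SE, adjusted p = 0.0843). Of the inhibitors, 0 of 7 passed the criterion at either stage, but 4 were separated by day at implantation, 1 higher and 3 lower against 12.3% and 13.4% of all rows, and 3 at labor, all higher against 10.9%. At implantation Irf2bp2, a corepressor of Irf2, lay higher at E0.5 in every library, 0.74 ± 0.15 (SE, adjusted p = 0.0665), and the phosphatase Ptpn2, which acts on the kinases, lower, -0.72 ± 0.22 (SE, adjusted p = 0.157), as did Ptpn1 and Irf2bp1 with -0.27 and -0.33. At labor Pias1, Irf2bp1 and Irf2bp2 lay higher at E18.5, with 0.70, 0.32 and 0.41. Socs1 and Socs3, which block the receptor kinases, overlapped at both stages.

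Among the rows that were higher at E0.5, Dhx58 (LGP2), the third RIG-I-like helicase, was at 3.66, 4.47 and 4.49 FPKM in the E0.5 uteri and 0.872, 1.06 and 0.774 FPKM in the E4.5 uteri, and its log2 fold change was 2.23 ± 0.22 (SE, adjusted p = 0.0167). Epsti1, an interferon response gene of epithelium and macrophages, was at 4.03, 3.77 and 4.15 FPKM in the E0.5 uteri and 0.217, 0.489 and 0.246 FPKM in the E4.5 uteri. Its log2 fold change, 3.67 ± 0.34 (SE, adjusted p = 0.0157), exceeded that of every row of the 38 genes except Zbp1. The ubiquitin ligase partners Parp9 and Dtx3l had 1.26 ± 0.19 (SE, adjusted p = 0.0356) and 1.57 ± 0.29 (SE, adjusted p = 0.0572). The class I heavy chain H2-D1 was at 134, 163 and 152.6 FPKM in the E0.5 uteri and 81.9, 53.9 and 29.8 FPKM in the E4.5 uteri, and its log2 fold change was 1.45 ± 0.38 (SE, adjusted p = 0.119). Irf5 and Irf4, of macrophages and lymphocytes, had 1.3 ± 0.26 (SE, adjusted p = 0.0644) and 2.22 ± 0.42 (SE, adjusted p = 0.0593). At labor the 2 rows lower at E18.5 were Irf8, a factor of dendritic cells and macrophages, at 1.93, 1.28 and 2.57 FPKM in the E18.5 uteri and 5.59, 4.77 and 3.9 FPKM in the E15.5 uteri, with -1.3 ± 0.27 (SE, adjusted p = 0.162), and Samhd1, which depletes nucleotides in myeloid cells, at 9.58, 12 and 19.5 FPKM in the E18.5 uteri and 48.8, 53.5 and 38.1 FPKM in the E15.5 uteri, with -1.81 ± 0.27 (SE, adjusted p = 0.106).

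**Figure D3:**
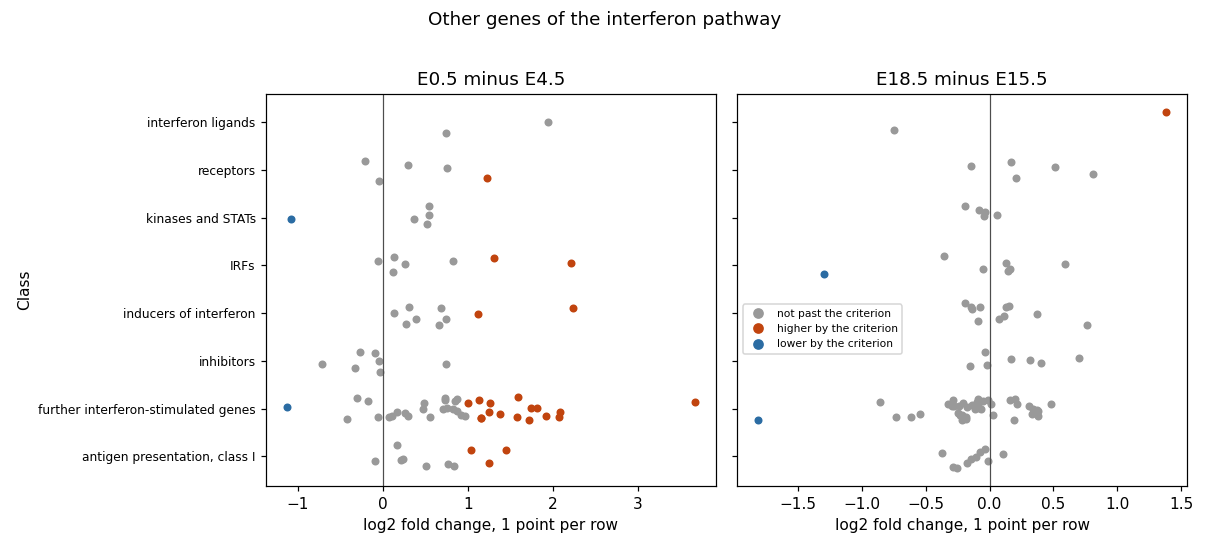
Log2 fold change of the other pathway rows by class, 1 point per tested row, at implantation (left) and labor (right), colored by the study's criterion. At implantation 24 of 84 rows are higher and 2 lower, and at labor 1 of 88 is higher and 2 lower.

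Markers of several cell types moved with the days. At implantation the summed FPKM of 10 macrophage and monocyte markers was 128 to 162 at E0.5 and 63.2 to 80.9 at E4.5, with 5 of 10 markers higher by the criterion, Itgam and Csf1r also by the adjusted p. The 8 markers of uterine epithelium summed to 301 to 359 and 101 to 241 FPKM, with 4 of 8 higher, or 2 of 8 without E4.5 replicate 3, where Cdh1 and Cldn7 had 0.86 and 0.97. Decidual markers went both ways. Their sum of 79.1 to 126.6 against 35.6 to 50.0 FPKM was mostly Dcn, which was higher by the criterion, whereas Bmp2, induced where the embryo attaches, was lower and the other 3 tested did not pass, of which Prl8a2, with counts in 1 library only, was also lower without E4.5 replicate 3. T cell markers summed to 1.29 to 1.86 against 0.591 to 1.11 FPKM, with 1 of 3 tested higher, and endothelial markers to 24.3 to 28.0 against 36.0 to 65.8 FPKM, with 2 of 6 lower, or 3 without E4.5 replicate 3 and 1 without E4.5 replicate 1. Markers of fetal membrane and yolk sac summed to 0.0753 to 0.164 against 1.55 to 11.5 FPKM. Of these 1 of 2 tested was lower, or 2 of 2 without E4.5 replicate 1 or without E4.5 replicate 2. The sums of dendritic cell, NK cell, B cell and neutrophil markers overlapped. Ciita of 7 dendritic cell markers tested was higher at E0.5 by the criterion, but not without E0.5 replicate 1, at 0.99. Of 4 neutrophil markers tested Ly6g and Csf3r were higher by it, Ly6g not without E0.5 replicate 3. Csf3r was higher in only 2 of the 6 fits with 1 library left out. The other 2, S100a8 and Camp, were not called, but without E0.5 replicate 2 they were lower, with -8.26 and -7.99. The neutrophil markers S100a9 and Retnlg were at 0 in all 6 libraries, and Siglech, of the plasmacytoid dendritic cell that makes interferon, reached at most 0.45 FPKM. Erythroid sums overlapped too, with 0 of 4 markers tested called, or 3 lower at E0.5 without E4.5 replicate 2. Ovary and oviduct markers summed to 9.23 to 20.9 FPKM at E0.5 and to 9.25, 10.9 and 904 FPKM at E4.5, with 5 of 7 lower at E0.5 by the criterion. The count was 1 lower and 0 higher without any one of the E0.5 libraries, and 1 lower and 1 higher without E4.5 replicate 3. Lists of immune cells that overlapped also changed without that library. Of 8 NK cell markers 5 were then lower at E0.5 by the criterion, where 0 were with all libraries, and their sum was 4.58 to 15.1 FPKM at E0.5 against 26.2 and 65.5 FPKM in the 2 other E4.5 libraries. The dendritic cell markers Itgax and Xcr1 were then lower, with -1.37 and -1.32, while Siglech and the B cell marker Cd79b were higher and Csf3r was not called. The lists as a whole went the other way, with a median log2 fold change of 0.33 over the 7 dendritic cell markers tested. Over the 3 plasmacytoid dendritic cell markers tested, Siglech among them, the median was -0.15. Of the stroma markers, 1 higher and 1 lower with all libraries, 0 were then higher and 2 lower. With 1 library left out in turn, the lower one, Hand2, lost its call in 5 of 6 fits and the higher one, Col1a2, in 3 of 6. The counts of macrophage, T cell and fetal membrane markers by the criterion were the same without E4.5 replicate 3. At labor all 8 NK cell markers were lower at E18.5 by the criterion, summing to 10.1 to 43.3 against 136 to 388 FPKM. Epithelial markers were higher there in sum, 626 to 862 against 208 to 443 FPKM with 3 of 8 past the criterion, as were trophoblast and placenta markers, 47.8 to 77.3 against 4.5 to 35.0 FPKM with 3 of 7 tested. Endothelial markers were lower in sum, 76.4 to 105 against 147 to 177 FPKM with 1 of 6 past the criterion, as were T cell markers, 1.49 to 1.69 against 1.79 to 2.46 FPKM, and ovary and oviduct markers, 17.8 to 24.7 against 26.8 to 29.4 FPKM, with 0 past it. Macrophage markers overlapped, 411 to 529 against 413 to 491 FPKM. Sums of decidual, erythroid and fetal membrane markers overlapped as well. By the criterion 2 of 6 decidual markers tested were higher at E18.5 and 1 lower, and 2 of 6 erythroid and 1 of 6 fetal membrane and yolk sac markers were lower. The part of these shifts in the values of the 38 genes was not tested.

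**Figure D4:**
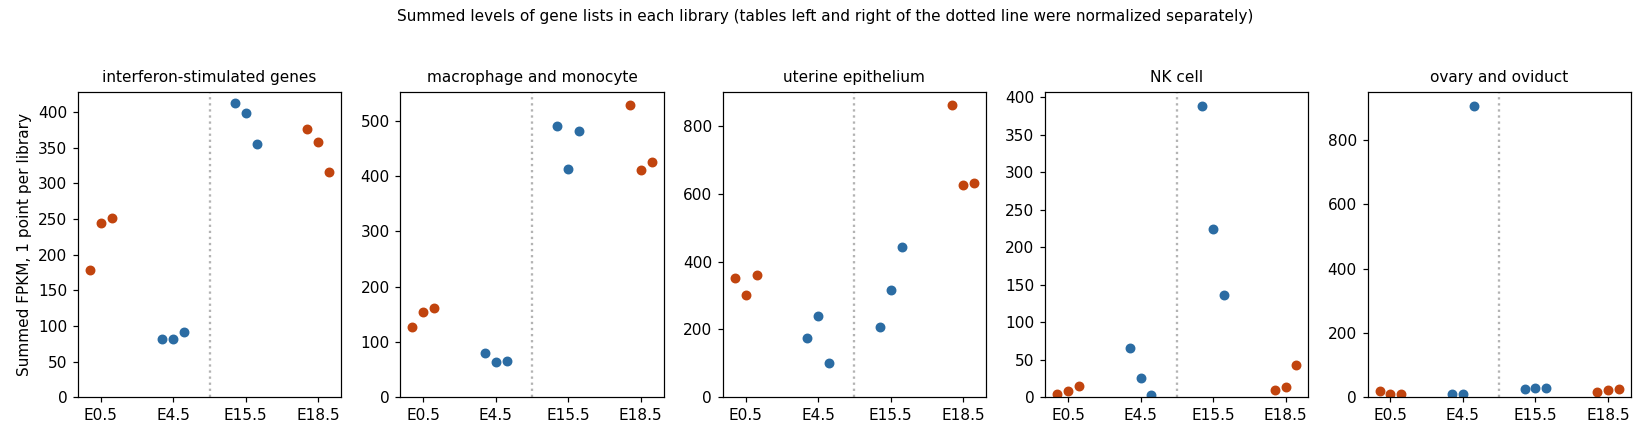
Summed FPKM of the 38 interferon-stimulated genes and of the marker lists of macrophages, uterine epithelium, NK cells and ovary with oviduct, 1 point per library, ordered by day. The sum of the 38 genes is 179 to 251 FPKM at E0.5 and 81.7 to 91.7 FPKM at E4.5, and the ovary list reaches 904 FPKM in 1 E4.5 library.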

How the data were processed

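Total RNA of each uterus was sequenced, and the authors aligned and assembled the reads and estimated FPKM with StringTie and Ballgown, separately for each stage. The methods name Bowtie2 and Tophat2 with ribosomal RNA removal, whereas the submitters' processing notes name Bowtie 0.12.2, HISAT2 2.0 and StringTie 1.3.0 with the builds mm8 and mm10, and the labels name poly(A) selection. By RefSeq in GRCm38, the gene of the same symbol overlaps each of the 38. The FPKM values of both tables and the whole-number counts of the implantation table were deposited by the authors. How reads were assigned to genes, and whether strand was used, is not given in the sources used here, so overlapping and antisense genes cannot be told apart. A value of 0.0001 FPKM was read as 0.

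Rows without a gene name (1.02% to 1.86% of counts) were left out. A row entered a test if it averaged 0.1 FPKM or more. In R 4.3.3, edgeR 4.0.16 fitted the implantation counts (quasi-likelihood test, library factors by TMM), and for labor the log2(FPKM + 0.1) values, a scale that understates folds of low genes, went into limma 3.58.1 with a trend. FPKM of separate tables were never tested against each other. The difference between stages used limma on the contrasts within each table. Adjusted p-values are Benjamini-Hochberg over all rows tested. An exact permutation test of 3 against 3 libraries cannot go below 0.1. Scripts were tested on simulated data. Alternatives were other filters, scalings, pseudocounts, tools and left-out libraries.

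Named are all members past the study's criterion or the adjusted p at either stage and the first gene of each role. The genes and lists were chosen with earlier results of these data known. Promoter sequence was not used here, and 1 gene of the pathway list is not reported here.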

Additional observations from a re-analysis of the deposited data

Results flagged for a closer look

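For 18 of the 38 genes the effect of the day differed between the stages, as the log2 fold change of E0.5 over E4.5 minus that of E18.5 over E15.5, by limma with an adjusted p under 0.05, against 1.3% of all pairs of rows in that direction. The RNA sensor Zbp1 had 4.56, and the OAS genes Oas3, Oasl1, Oas1a, Oas1g and Oasl2 had 3.27, 2.82, 2.64, 2.55 and 1.93, where Oas1a and Oas1g share 1 implantation row. Mx1 and Mx2 had 3.42 and 1.81, Ifit1 had 2.58 and Isg15 had 1.86. Among the other type I genes Ifi44, Rtp4 and Xaf1 had 2.27, 1.81 and 1.73. The GTPases Iigp1, Gbp2 and Gbp3 had 2.48, 2.17 and 2.11, and the antigen processing genes Psmb9 and Tap1 had 1.67 and 1.16. Of these, Tap1 did not reach the study's criterion within either stage. With each of the 12 libraries left out in turn, 6 of the 18 passed every time (Zbp1, Oas3, Mx1, Ifi44, Xaf1 and Iigp1). The other 12 passed in 1 to 9 of the 12 fits, with Gbp3 in 1, Tap1 in 2, Psmb9 in 3, Rtp4 in 4 and Isg15 and Oasl2 in 5. With a pseudocount of 1 FPKM in place of 0.1, the 18 still passed but 10 moved by over 1.5 times, Zbp1 to 2.49, Oas1a to 1.95, Oas1g to 1.86, Iigp1 to 1.83, Oas3 to 1.81, Mx1 to 1.70, Ifi44 to 1.65, Oasl1 to 1.51 and Psmb9 and Rtp4 to 1.08.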

How the results depend on the processing

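The count of 23 rows higher at E0.5 by the study's criterion stayed between 22 and 25 in all 15 alternatives, and 0 rows were called at labor in all 16. The count by the adjusted p at implantation, 8, moved most: 16 where rows averaged 1 FPKM or more, 16 over rows with an Ensembl transcript only, 28 with DESeq2, and 0 to 23 with 1 library left out. The shares of all rows that passed with these filters or with DESeq2 are not given here. Those counts therefore cannot be set against all rows. Replicate numbers did not pair the samples, since deviations of libraries with the same number correlated between -0.07 and 0.03. With the replicate number as a block the count was 0, and that of the difference between stages 3 in place of 18. With 1 library left out that count was 6 to 24, and with a pseudocount of 1 FPKM the median difference was 1.27. The causes were not tested. Including rows without a gene name was chosen after seeing the data and left 23 rows by the criterion.

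No called row changed sign. Among rows without a call, 3 changed sign at implantation, 15 at labor and 4 in the difference in at least 1 alternative. Rsad2 at implantation was 0.0594 with the block, 0.0258 with upper-quartile factors and 0.0416 with limma. With 1 library left out, Rsad2 ranged from -0.41 to 0.23, Ifit3 from -1.50 to 0.38 and the row of Ifit2 from -0.39 to 0.36. At labor, quantile normalization gave -0.037 for Irf9, -0.0471 for Oas1g and -0.0285 for Igtp, 75th percentile scaling gave -0.0408, -0.0504 and -0.0346, and a pseudocount of 1 gave 0.0014 for Irgm1. With 1 library left out, Stat2 ranged from -0.0801 to 0.61, Irf9 from -0.0239 to 0.0854, Irf7 from -0.14 to 0.095, Isg15 from -0.28 to 0.0479, Ifit3 from -0.36 to 0.11, Ifit3b from -0.43 to 0.013, Oas1a from -0.20 to 0.0407, Oas1g from -0.11 to 0.18, Oas3 from -0.37 to 0.22, Oasl1 from -0.13 to 0.44, Oasl2 from -0.20 to 0.33, Ifi27l2a from -0.41 to 0.13, Gbp7 from -0.0374 to 0.39, Igtp from -0.0463 to 0.13 and Irgm1 from -0.16 to 0.29. The difference between stages ranged from -0.99 to 0.67 for Ifit3, -0.18 to 0.74 for Ifit3b, -0.13 to 0.51 for Bst2 and -0.0021 to 0.56 for Gbp7. These labor values have no known depth behind them.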

Other observations

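The implantation table also holds 37 rows that carry the name of 1 of 13 of the 38 genes but no Ensembl transcript, as assembled fragments, 30 of them inside the RefSeq span of the gene. The mean FPKM was higher at E0.5 in 33 of the 37, and in 20 the E0.5 libraries lay wholly above the E4.5 libraries, while 0 were separated in the other direction, where 12.3% and 13.4% of all rows tested were separated. The median log2 fold change was -0.03 over all rows tested and -0.12 over those with an Ensembl transcript, so rows without a transcript leaned more to E0.5. Shares over such rows alone, or of rows with a higher mean, are not given here. Herc6, the Isg15 ligase, had 11 such rows, of which 10 had a higher mean at E0.5 and 7 were separated. The sensor Ifih1 had 7, all with a higher mean and 2 separated, and Mx2 had 5, of which 4 were separated. Rows of the same gene share its transcripts and are not independent. The labor table held 1 such row, of Parp14.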
